A study of Mus musculus with 2 samples.

Results

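The cells described here are multipotent progenitors of mouse bone marrow in which at most 1 UMI was counted over 27 marker genes of S phase and mitosis. UMIs are unique molecular identifiers, 1 per captured mRNA molecule. A cell was a member when its barcode had at least 2000 UMIs and under 10% of them from mitochondrial genes. It also had to have 0 UMIs summed over 13 genes of mitosis (Mki67, Top2a, Ccnb1, Ccnb2, Cdk1, Cdc20, Birc5, Cenpa, Cenpf, Tpx2, Ube2c, Nusap1 and Hmmr) and at most 1 UMI summed over 14 genes of S phase (Mcm2 to Mcm7, Pcna, Tyms, Rrm1, Rrm2, Gins2, Uhrf1, Dut and Tk1). Of 7884 barcodes, 6460 passed the UMI and mitochondrial limits and 170 of those were members, 76 in library 1 and 94 in library 2. Members were thus chosen by their measured UMIs of these 27 genes, whose levels are set by the choice and are not a result.

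The series held 2 samples of bone-marrow cells sorted as Lin-, Sca-1+, c-kit+ and CD34+ with a further gate written Flt3L+ in the labels, taken 20 hours after thioglycollate, an irritant, was injected into the peritoneum. One came from C57BL/6 wild-type mice and the other from C57BL/6 Spp1-/- mice, which lack osteopontin, a secreted matrix protein and cytokine. Both received thioglycollate, so there is no resting control, and the sources used here do not give the number of mice or their age. Each sample gave 1 droplet library of mRNA 3-prime ends, and nothing used here ties either barcode suffix to a genotype, so the libraries are called 1 and 2 and no value is given a genotype. With 1 library for each genotype there is no replicate check, and all intervals are 95% intervals that cover counting error only.

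A dividing cell passes from G1 through S phase, in which DNA is copied, into G2 and mitosis, and many genes of the later phases are transcribed only when they are needed. In G1 and in resting cells the retinoblastoma family and the DREAM complex hold these genes down at E2F and CHR promoter elements, while cyclin D with Cdk4 or Cdk6 lifts that block when a cell commits to divide. Haematopoietic stem cells are mostly at rest, whereas the multipotent progenitors below them divide often, and a cell in early G1 and a resting cell both lack most of these transcripts.

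Members were a small share of the cells that passed, and a share that fell steeply with depth. They made up 3.11% (2.46 to 3.88) of 2444 cells in library 1 and 2.34% (1.90 to 2.86) of 4016 cells in library 2. In cells of 2000 to 2249 UMIs the shares were 15.3% and 20.4%, in cells of 2250 to 2499 UMIs 7.85% and 13.2%, in cells of 2500 to 2999 UMIs 2.65% and 4.59%, and in cells of 3000 to 3499 UMIs 1.35% and 0.617%. None of the 3652 cells with 3500 UMIs or more was a member, which allows a share of up to 0.0821%. The median member had 2262.5 UMIs in library 1 and 2295.5 in library 2, against 3249 and 4092 UMIs in all cells that passed, and only 9 members had over 3000.

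The share was also computed at equal depth. When every cell was thinned at random to 2000 UMIs and the rule was applied again, 260 cells met it, among them all 170 members, and the shares were 4.87% (4.05 to 5.80) and 3.51% (2.96 to 4.13). The share still fell with the depth before thinning, from 16.9% and 21.4% in cells of 2000 to 2249 UMIs to 3.37% and 2.26% at 3000 to 3499 UMIs. At 4000 to 4999 UMIs it was 1.09% and 0.678%. Cells without cycle transcripts were thus found mostly among those with the fewest UMIs, also once depth was made equal. Fewer captured molecules and less mRNA per cell cannot be told apart in these counts.

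**Figure D1:**
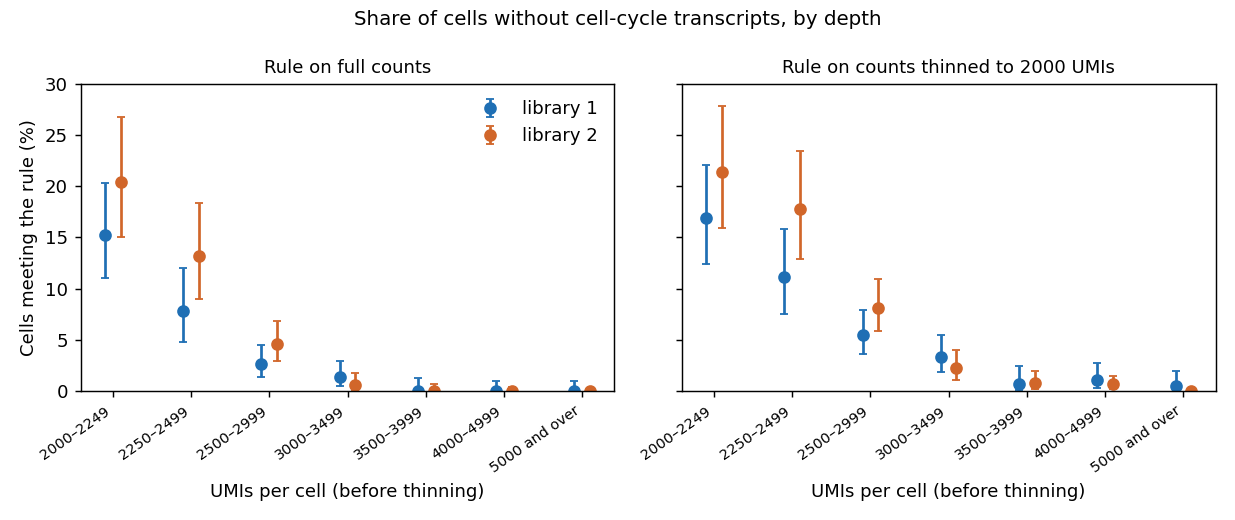
Share of cells meeting the rule (y axis, percent) against the UMIs of the cell before thinning (x axis), for full counts (left) and counts thinned to 2000 UMIs (right). Points are libraries and bars are exact Clopper-Pearson 95% intervals. The share falls from 15.3% and 20.4% in the shallowest cells to 0 at 3500 UMIs and above on full counts, and falls with depth after thinning too.

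Because of this, each member was set beside 1 other cell of its library with the nearest UMI total, and matched pairs differed by at most 4 UMIs. The summed counts were 178253 UMIs in members and 178241 in matched cells of library 1, and 222258 and 222261 in library 2. Levels are given as CPM (a gene's UMIs per 1000000 UMIs of the summed cells) and differences as the ratio of CPM in members to CPM in matched cells, mostly on the log2 scale. The matched cells had few cycle UMIs themselves, with a median of 5 S phase UMIs of the rule in library 1 and 4.5 in library 2, and a median of 0 and 1 mitosis UMIs. Spp1 itself had 0 UMIs in members and matched cells of both libraries, which allows up to 16.8 CPM in members of library 1 and 13.5 CPM in those of library 2.

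Cd34 was detected in most members, and 4 cells went against the progenitor label. At least 1 UMI of the sort genes Cd34, Ly6a, Kit and Flt3 or of Cd48 was left after thinning in 72 of 76 members of library 1 (94.7%) and 87 of 94 of library 2 (92.6%), against 71 of 76 and 90 of 94 matched cells. Cd34, the sialomucin of the sort, was at 539 CPM in members and 488 in matched cells of library 1, and at 652 and 585 CPM in library 2. Ly6a, which encodes Sca-1, was at 449 and 331 CPM in library 1 and 481 and 355 CPM in library 2, a log2 ratio of 0.44 in each, short of the 1.5-fold limit used for calls. The stem cell factor receptor gene Kit was thinly counted, with 12 UMIs in members and 5 in matched cells of library 1 and 11 and 9 in library 2. Cells of library 1 rich in MHC class II transcripts, 4 of which were members, were set beside these. A Cd34 UMI was left in 31.3% of 32 such cells after the same thinning (median 3914 UMIs before it). It was left in 67.1% of members in library 1 and 68.1% in library 2 (medians 2262.5 and 2295.5 UMIs, and 69.7% and 73.4% unthinned). At least 1 UMI of any of the 5 genes was in 84.4% of the class II-rich cells (67.2 to 94.7), an interval that overlapped with those of members. Flt3, which is also in the dendritic list below, had a UMI in 18.8% of them. The share with any of the 5 genes is therefore not read as a mark of progenitors.

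The cells against the label were 4 members of library 1 that carried 250, 236, 198 and 165 UMIs over the MHC class II genes H2-Aa, H2-Ab1, H2-Eb1 and Cd74, which serve antigen presentation to helper T cells. All other members had at most 7 such UMIs in library 1 and 6 in library 2. The same 4 cells held 74, 65, 51 and 41 UMIs of Cst3, cystatin C, which is abundant in dendritic cells, with 0 UMIs of Cd34 and Flt3 and 1 UMI of Kit in all. They go against the progenitor label and are left without a cell type name. Of all cells that passed, 32 of library 1 and 2 of library 2 had 20 or more UMIs of these class II genes.

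Markers of other blood and stromal cells were mostly few in members, apart from the dendritic list. Its 11 markers summed to 1235 UMIs in members and 176 in matched cells of library 1 and to 231 and 265 in library 2, and without the 4 class II-rich cells to 150 and 167 in library 1. The list holds the 4 class II genes, Cst3 and Flt3. Of its other markers Itgax, Siglech, Batf3 and Clec9a had 1 to 3 UMIs in members of library 1 and 0 in library 2, and Cd209a had 0 in both. Among B-lineage markers Cd79b was counted (12 UMIs in members of library 1 and 27 in library 2), and Cd79a, Pax5, Ebf1, Vpreb1 and Igll1 were at 0. Of 11 markers of T, NK and innate lymphoid cells nearly all UMIs were of the granule gene Nkg7 (61 of 62 in library 1 and 57 of 59 in library 2), and the Cd3 genes were at 0. Neutrophil markers summed to 2 and 1 UMIs, mast cell and basophil markers to 0 and 1, erythroid markers to 8 and 10, plasma cell markers to 2 and 17, and stromal and endothelial markers to 8 and 14. Monocyte and macrophage markers summed to 46 and 58 UMIs against 31 and 47 in matched cells, of which Lyz2, lysozyme, gave 35 and 49, with Adgre1, F13a1 and Ly6c2 at 0. Without the class II-rich cells they summed to 33 and 31 UMIs in library 1. In all, 32 barcode sequences occurred in both libraries, and 3 of them were members.

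At equal UMIs, members held more ribosomal protein mRNA and fewer different genes. Ribosomal protein genes took 26.7% to 50.2% of a member's UMIs in library 1 (median 42.1%) and 29.9% to 48.2% of a matched cell's (median 37.0%), and the member was higher in 55 of 76 pairs. In library 2 the range was 30.7% to 48.9% in members (median 39.3%) and 20.1% to 44.3% in matched cells (median 36.4%), with the member higher in 72 of 94 pairs. The groups overlapped widely, and the medians of the pair differences were 4.72 and 3.33 percentage points. A median of 935 genes was detected in members and 999 in matched cells of library 1, and of 1018.5 and 1055 in library 2, with the member lower in 57 of 76 and 74 of 94 pairs. The mitochondrial share, a sign of damaged cells, was low on both sides, with medians of 0.530% and 0.410% in library 1 and 0.546% and 0.556% in library 2.

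**Figure D2:**
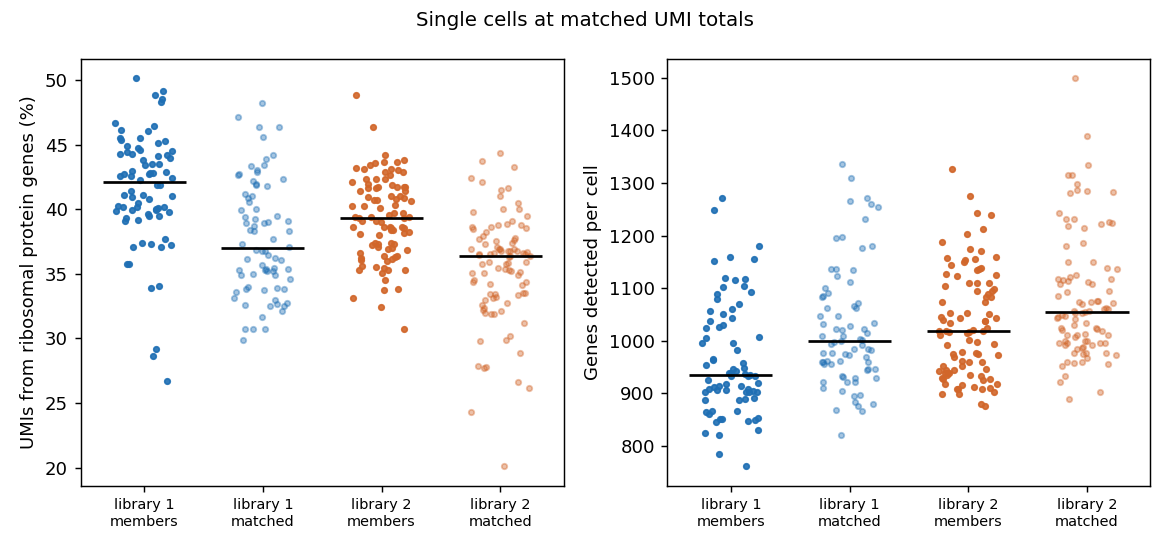
Each point is 1 cell, a member or its matched cell, in library 1 (blue) or library 2 (orange), and black lines are medians. The left panel shows the percent of UMIs from ribosomal protein genes, with medians of 42.1% against 37.0% and 39.3% against 36.4%, and the right panel the number of genes detected, with medians of 935 against 999 and 1018.5 against 1055.

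The difference in ribosomal protein mRNA was small per gene and spread over the whole group. Of 83 genes found, 79 had enough UMIs to be measured, 75 of them had a mean log2 ratio above 0, and 64 were higher in members of both libraries while 2 were lower in both. Over all 1098 genes measured, 261 were higher and 449 lower in both. The summed level was 415107 CPM in members and 376849 in matched cells of library 1 (1.1-fold, 1.09 to 1.11) and 393300 and 353755 CPM in library 2 (1.11-fold, 1.1 to 1.12). Rpl32, a protein of the large subunit and the most counted of them, was at 14827 against 12988 CPM in library 1 and 14632 against 12274 CPM in library 2. Rpl39 had the largest mean log2 ratio of the group, 0.46 in library 1 and 0.60 in library 2. No ribosomal protein gene was 1.5-fold apart in both libraries.

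A gene was called when it had at least 100 UMIs over the 4 sums and was at least 1.5-fold apart in the same direction in both libraries. The 1098 genes that reached 100 UMIs are the well-counted ones, and only 4 of the 27 genes of the rule were among them. Across these 1098 genes 50 were called lower in members (4.55%) and 7 higher (0.638%). The lower genes include 4 of the rule, Dut, Pcna, Mcm6 and Mcm7, which the choice of cells put there; without these, 46 of 1094 genes (4.2%) were lower and 7 (0.64%) higher. The log2 ratios of the 2 libraries were only weakly correlated across genes (Pearson r 0.283 over 1094 genes, rule genes left out). The median log2 ratio of all genes measured was -0.09 in library 1 and -0.05 in library 2. When totals left out ribosomal, mitochondrial and rule genes, 31 genes were lower and 11 higher, and when ratios were centred on the median gene, 35 were lower and 10 higher. Under both scalings 0 of the lists with at least 3 measured genes changed the sign of their median.

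**Figure D3:**
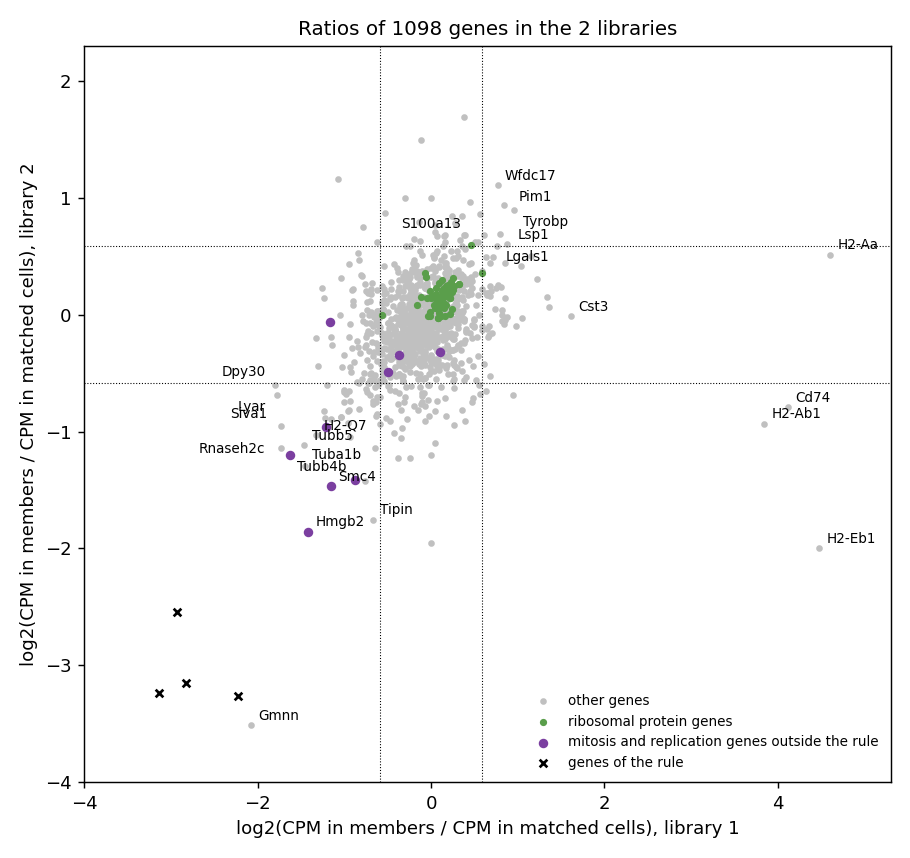
Log2 ratio of CPM in members to CPM in matched cells for 1098 genes, library 1 on the x axis and library 2 on the y axis, with dotted lines at 1.5-fold. Crosses are the 4 genes of the rule, at the lower left by construction. Gmnn, Hmgb2 and the tubulin genes lie beyond both lines on the low side, Wfdc17, Pim1 and Tyrobp on the high side, and the MHC class II genes are high in library 1 alone.

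The lowest genes outside the rule included parts of the machinery of replication, chromosomes and spindle. Gmnn (chr13:24751845-24761923), geminin, which blocks a second firing of replication origins after S phase has begun, was the lowest of them. It was at 50.5 CPM in members against 213 in matched cells of library 1 (log2 ratio -2.08, -3.31 to -1.0) and at 22.5 against 256 CPM in library 2 (-3.51, -5.19 to -2.20). That is 9 against 38 UMIs and 5 against 57.

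Hmgb2 (chr8:57511907-57515999), a chromatin protein that bends DNA and is abundant in dividing cells, was at 337 against 898 CPM in library 1 (-1.42, -1.87 to -0.98) and 189 against 684 CPM in library 2 (-1.86, -2.38 to -1.35). Smc4, the core ATPase of condensin, which compacts chromosomes for mitosis, was at 101 against 224 CPM and 117 against 324 CPM. Tipin, which protects stalled replication forks, was at 123 against 196 CPM in library 1, where the interval of the ratio included no change (-1.51 to 0.14), and at 72.0 against 243 CPM in library 2. Rnaseh2c, a subunit of the enzyme that removes ribonucleotides from DNA, was at 72.9 against 241 CPM and 90.0 against 198 CPM.

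Tubulin mRNA was lower in members for 3 genes, which encode the subunits of microtubules and so of the spindle. Tuba1b (chr15:98931425-98934565) was at 679 against 1857 CPM in library 1 (-1.45, -1.76 to -1.15) and 526 against 1291 CPM in library 2 (-1.29, -1.62 to -0.98). Tubb5 (chr17:35833921-35838306) was at 522 against 1436 CPM (-1.46, -1.82 to -1.11) and 603 against 1305 CPM (-1.11, -1.42 to -0.81). Tubb4b (chr2:25222160-25224702) was at 123 against 382 CPM and 166 against 382 CPM. Tubulin genes share much of their sequence, and the sources used here do not say how reads that fit several genes were handled, so the split between them is uncertain. Stmn1, stathmin, which destabilises microtubules and was not among the 12 lowest, was at 813 against 1919 CPM and 733 against 1296 CPM.

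The other lowest genes are known mainly for roles outside replication and the spindle. Siva1, which binds the receptor CD27 and promotes cell death, was at 107 against 353 CPM and 130.5 against 252 CPM. Lyar, a nucleolar protein of growing cells, was at 107 against 365 CPM and 162 against 261 CPM. Dpy30, a subunit of the enzymes that methylate histone H3 at lysine 4, was at 84.2 against 292 CPM in library 1 and 130.5 against 198 CPM in library 2, where the interval included no change (-1.33 to 0.11). H2-Q7, a class I MHC gene with near-identical neighbours, was at 89.8 against 224 CPM and 99.0 against 202 CPM. Without the 4 class II-rich cells all 12 stayed at least 1.5-fold lower in both libraries, with log2 ratios in library 1 from -2.0 for Gmnn to -0.61 for Tipin. Tipin, Dpy30 and H2-Q7 fell short of the call under several other settings of the analysis.

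The wider lists of cycle genes show how far the difference reached. Of 44 genes of G2 and mitosis outside the rule (spindle, kinetochore, cytokinesis and mitotic kinases), only 6 were counted well enough to be measured. Of those, 4 were called lower (Hmgb2, Tubb4b, Smc4 and Cks1b) and 0 higher, with medians of -1.18 and -1.08. The 44 genes together were at 1481 CPM in members against 3372 in matched cells of library 1 (0.439-fold, 0.379 to 0.508) and 1494 against 3455 CPM in library 2 (0.432-fold, 0.379 to 0.492). In members 17 of the 44 genes had no UMI in library 1 and 21 in library 2, against 3 and 1 in matched cells. Cks1b, a subunit of cyclin-dependent kinases that has processed copies in the genome, was at 157 against 365 CPM and 162 against 315 CPM. The 2 measured genes not called were Bub3, of the spindle checkpoint (log2 ratios -0.37 and -0.34), and Arl6ip1, of the endoplasmic reticulum (0.11 and -0.32).

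DNA replication genes outside the rule were lower to a similar degree. The 37 genes summed to 1419 against 2979 CPM in library 1 (0.476-fold, 0.409 to 0.554) and 1228 against 2596 CPM in library 2 (0.473-fold, 0.408 to 0.547). Of 3 measured, only Cdca7, a partner of the chromatin remodeller Hells, was called lower, at 140.2 against 258 CPM and 67.5 against 180.0 CPM. Rfc2, of the clamp loader, had log2 ratios of -0.49 in both libraries, and Nasp, a histone chaperone, of -1.17 in library 1 and -0.06 in library 2. Beyond the list, Dtymk and Dctpp1, enzymes that make and cleanse nucleotides, were also called lower. Dtymk was at 224 against 382 CPM and 166 against 445 CPM, and Dctpp1 at 353 against 825 CPM and 337 against 621 CPM.

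Histone genes were lower in members by a smaller margin. All 5 measured members of the list had a mean ratio below 0, and 1 of them was called, H2afz, the variant H2A.Z, at 499 against 1027 CPM in library 1 and 427 against 783 CPM in library 2. H2afy, macroH2A, was nearly equal, at 1223 against 1352 CPM and 1120 against 1251 CPM. The replication-independent histone gene H3f3b was at 1116 against 1268 CPM and 1296 against 1300.3 CPM. The 18 genes summed to 0.780-fold (0.705 to 0.863) in library 1 and 0.863-fold (0.788 to 0.945) in library 2.

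G1 cyclins and their kinases, which govern entry into the cycle, were lower by a smaller margin than the G2 and mitosis list outside the rule, with intervals that did not overlap its own. These genes summed to 0.810-fold (0.687 to 0.956) in library 1 and 0.864-fold (0.748 to 0.998) in library 2, and 0 of 3 measured genes was called. Cdk4 was at 797 against 1027 CPM and 783 against 954 CPM, Cdk6 at 123 against 191 CPM and 220.5 against 243 CPM, and Ccnd2, cyclin D2, at 286 against 314 CPM and 400.4 against 373 CPM. The retinoblastoma, E2F and DREAM genes were too thinly counted to be read one by one, with 51 UMIs against 76 in library 1 and 73 against 93 in library 2 over 20 genes.

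Inhibitors of cyclin-dependent kinases gave almost no signal in members or in matched cells. The 7 genes summed to 14 UMIs in members and 10 in matched cells of library 1 and to 19 and 22 in library 2. Cdkn1c, the p57 inhibitor of resting stem cells, and Cdkn2a and Cdkn2b had 0 UMIs in all 4 sums, which allows up to 16.8 and 13.5 CPM in members. Cdkn1a had 5 UMIs against 1 and 2 against 5, Cdkn1b 1 against 5 and 4 against 6, and Cdkn2d 4 against 3 and 12 against 10. At this depth no difference in their sum was detectable (intervals 0.578 to 3.52 and 0.442 to 1.67).

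Other genes held to slow division did not differ in the same direction in both libraries. The 22 genes found of the list summed to 1.37-fold (1.05 to 1.79) in library 1 and 0.809-fold (0.647 to 1.01) in library 2. Cirbp, an RNA-binding protein induced by cold and the only one measured, had 44 UMIs in members and 44 in matched cells of library 1 and 39 and 46 in library 2. Btg2, an antiproliferative factor, had 17 against 8 UMIs and 21 against 24, and Foxp1, a transcription factor, 21 against 12 and 29 against 28.

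**Figure D4:**
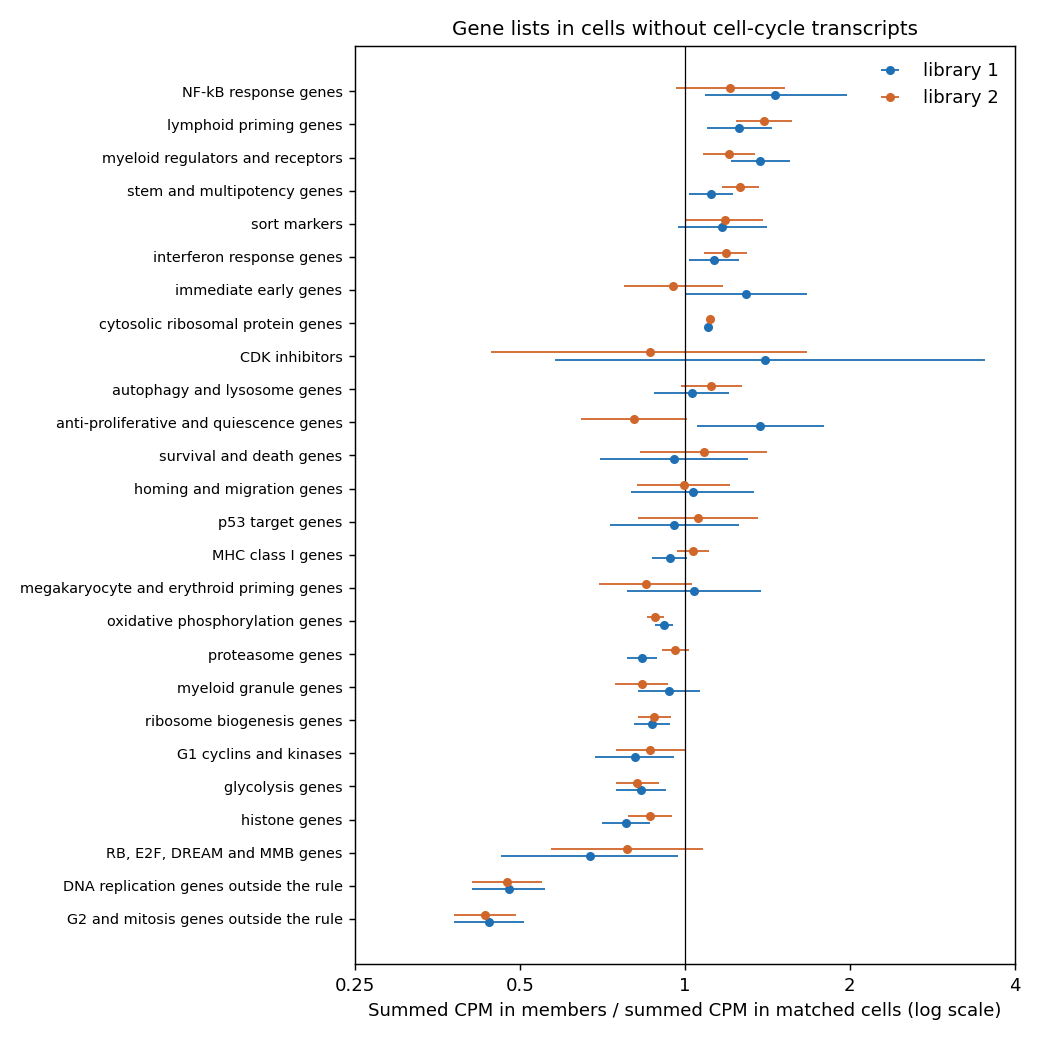
Summed CPM of each gene list in members divided by that in matched cells (x axis, log scale), by library, with 95% intervals that cover counting error only. The mitosis and replication lists outside the rule lie at 0.43 to 0.48 in both libraries, the ribosomal protein list at 1.1 and 1.11, and the list of quiescence genes at 1.37 and 0.809; the MHC class II list is left out.

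Of the 7 genes called higher in members, 6 could be named under the rule for named genes, and the remaining 1, Gm6133, is a predicted gene. Wfdc17 (chr11:83703991-83706268), a small secreted protein with a WAP domain made by myeloid cells, had the largest mean log2 ratio of the 2 libraries, although Tyrobp, Lsp1, Pim1 and Gm6133 were higher than it in library 1. It was at 651 CPM in members against 382 in matched cells of library 1 (log2 ratio 0.77, 0.33 to 1.22) and at 747 against 346 CPM in library 2 (1.11, 0.71 to 1.52), and its values without the class II-rich cells were 0.77 and 1.11. Pim1, a kinase induced by cytokine receptors, was at 191 against 107 CPM (0.84, -0.01 to 1.73) and 216 against 112 CPM (0.94, 0.21 to 1.70). Tyrobp, the adaptor DAP12 of myeloid and NK receptors, was at 196 against 101 CPM (0.96, 0.10 to 1.87) and 184 against 99.0 CPM (0.90, 0.12 to 1.72).

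The remaining higher genes lay close to the 1.5-fold limit. Lsp1, an actin-binding protein of leukocytes, was at 432 against 236 CPM and 328 against 216 CPM, Lgals1, galectin-1, at 275 against 163 CPM and 202 against 135 CPM, and S100a13, a calcium-binding protein, at 163 against 107 CPM and 144 against 90.0 CPM. The interval included no change for Lgals1 in library 2 and for S100a13 in both libraries. The 4 class II-rich cells alone held 25 of the 77 Lsp1 UMIs, 11 of the 35 Tyrobp UMIs and 3 of the 29 S100a13 UMIs of members in library 1. Without those cells the log2 ratios in library 1 were 0.49 for Lsp1, 0.58 for Tyrobp and 0.45 for S100a13, all under 1.5-fold, and Wfdc17, Pim1, Lgals1 and Gm6133 stayed called. With 3 matched cells for each member in place of 1, only Wfdc17 of the 7 was still called.

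MHC class II mRNA was far higher in members of library 1 and not of library 2. Cd74, the invariant chain, was at 2429 against 140.3 CPM in library 1 and 135 against 234 CPM in library 2, and H2-Ab1 at 1206 against 84.2 CPM and 49.5 against 94.5 CPM. The whole list of 10 genes summed to 5784 against 774 CPM in library 1 (7.47-fold, 6.25 to 8.99) and 769 against 958 CPM in library 2 (0.803-fold, 0.653 to 0.986). With all class II-rich cells left out and the remaining members matched again, the list was at 829.7 against 788.3 CPM in library 1, 1.05-fold. The difference thus came from 4 of 76 cells.

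Members carried transcripts of several lineages, as the matched cells did. Lymphoid priming genes were higher in members of both libraries, with median log2 ratios of 0.38 and 0.60 over 7 measured genes, of which 1, Lsp1, was called. They summed to 2721 against 2166 CPM in library 1 (1.26-fold, 1.1 to 1.44) and 3078 against 2205 CPM in library 2 (1.40-fold, 1.24 to 1.57). Without the class II-rich cells the list was at 1.22-fold in library 1. The shorter list of 7 lymphoid-primed markers, used for the shares of cells below, was higher in library 2 alone. It summed to 1.03-fold (0.847 to 1.25) in library 1 and 1.58-fold (1.33 to 1.87) in library 2. Dntt, which adds nucleotides at antigen receptor gene joins, was at 926 against 898 CPM in library 1 and 1138 against 670.4 CPM in library 2. Il12a was at 208 against 101 CPM and 180.0 against 135 CPM, Cd53, a tetraspanin, at 219 against 168 CPM and 324 against 202 CPM, and Bcl11a, a transcription factor needed for lymphoid cells, at 146 against 123 CPM and 202 against 112 CPM. Flt3, the receptor of the gate, was nearly equal, at 135 against 157 CPM and 171 against 162 CPM.

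Myeloid genes were split by kind. The granule protein genes summed to 0.935-fold (0.821 to 1.07) in library 1 and 0.834-fold (0.745 to 0.933) in library 2, and none of 3 measured was called. Prtn3, proteinase 3, was at 948 against 976 CPM and 891 against 1044 CPM, and Calr, calreticulin, at 510.5 against 752 CPM and 499 against 720 CPM. Elane had 0 UMIs in all 4 sums and Mpo 5 against 10 and 7 against 11. The list of myeloid regulators and receptors summed to 1.37-fold (1.21 to 1.56) and 1.20-fold (1.08 to 1.34), nearly all of it from Plac8, a small cysteine-rich protein, at 3086 against 2323 CPM and 2956 against 2385 CPM. Without the class II-rich cells this list was at 1.31-fold in library 1.

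Counted per cell, the shares of members with lineage transcripts had intervals that all overlapped with those of matched cells. After thinning to 2000 UMIs, 2 or more UMIs over lymphoid-primed markers were found in 39 of 76 members of library 1 (51.3%, 39.6 to 63.0) and 34 of 76 matched cells (44.7%), and in 48 of 94 members of library 2 (51.1%, 40.5 to 61.5) and 37 of 94 matched cells (39.4%). For granule myeloid markers it was 52.6% of members and 55.3% of matched cells in library 1 and 47.9% and 56.4% in library 2. For stem-like markers it was 34.2% and 30.3% in library 1 and 44.7% and 27.7% in library 2. Both lymphoid-primed and granule markers were found in 25% of members and 15.8% of matched cells in library 1 and in 18.1% and 20.2% in library 2, and none of the 3 classes in 15.8% and 10.5%, and 8.51% and 18.1%. In the 32 class II-rich cells of library 1 the shares were 6.25% for lymphoid-primed, 43.8% for granule and 15.6% for stem-like markers, so a share of granule markers near that of members was also found in cells of another kind. Unthinned, the shares of members and matched cells were 53.9% and 46.1% in library 1 and 56.4% and 46.8% in library 2 for lymphoid-primed markers, 57.9% and 60.5%, and 55.3% and 62.8% for granule markers, and 40.8% and 35.5%, and 53.2% and 35.1% for stem-like markers.

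The stem cell list summed somewhat higher in members in both libraries. The 30 genes summed to 5447 against 4875 CPM in library 1 (1.12-fold, 1.02 to 1.23) and 6461 against 5120.1 CPM in library 2 (1.26-fold, 1.17 to 1.37). Without the class II-rich cells the list was at 1.18-fold in library 1. Most of these UMIs came from Ifitm1 and Ifitm3, membrane proteins that are induced by interferon and high in stem cells. Ifitm3 is also in the interferon list. In library 1 Ifitm1 and Ifitm3 together rose by as much as the whole list. The other genes of the list did not rise in sum there. Ifitm1 was at 2799 against 2418 CPM and 3500.4 against 2691 CPM, and Ifitm3 at 1829 against 1633 CPM and 2025 against 1647 CPM. Hlf, a transcription factor of stem cells, had 15 UMIs against 9 in library 1 and 13 against 16 in library 2, and Mecom 8 against 4 and 7 against 5. Megakaryocyte and erythroid genes had intervals that included no change in both libraries (1.04-fold, 0.785 to 1.38, and 0.848-fold, 0.697 to 1.03).

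Genes of growth and energy supply were slightly lower in members, apart from the ribosomal proteins. Ribosome biogenesis genes, which act in the nucleolus, summed to 0.870-fold (0.806 to 0.939) and 0.879-fold (0.821 to 0.941), with 9 of 10 measured genes below 0 and none called. Nhp2, of the small nucleolar RNPs, was at 393 against 651 CPM and 369 against 553 CPM, and Npm1, nucleophosmin, at 2985 against 2822 CPM and 3010.02 against 3127 CPM. Glycolysis genes summed to 0.831-fold (0.749 to 0.923) and 0.819-fold (0.748 to 0.896), with Ldha, lactate dehydrogenase, at 959 against 1397 CPM and 841 against 1147 CPM. Oxidative phosphorylation genes summed to 0.914-fold (0.881 to 0.949) and 0.883-fold (0.853 to 0.915), with 50 of 64 measured genes below 0 and 1 called lower, Uqcr10 of complex III, at 443 against 696 CPM and 279 against 616 CPM. The median log2 ratios of the oxidative phosphorylation list were -0.12 and -0.19, against -0.09 and -0.05 over all 1098 genes, of which 664 had a mean ratio below 0. Because CPM share 1 total, the higher ribosomal protein level lowers the CPM of all other genes. How much of the lower sums in this paragraph comes from that was not tested. Proteasome genes summed to 0.834-fold (0.783 to 0.888) in library 1 and 0.960-fold (0.908 to 1.02) in library 2, with Psmd13 alone called lower.

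Interferon response genes were slightly higher in sum in members of both libraries, but the measured genes were split. They summed to 1.13-fold (1.02 to 1.25) and 1.19-fold (1.08 to 1.30), with none of 4 measured called. Of those 4, 2 had a mean log2 ratio below 0 and 2 above, with medians of 0.01 in library 1 and 0.23 in library 2. Irf7, the factor that amplifies the interferon response, fell short of the 100 UMIs needed, with 14 UMIs against 5 in library 1 and 34 against 15 in library 2. NF-kB response genes were at 1.46-fold (1.09 to 1.98) and 1.21-fold (0.964 to 1.52, an interval that included no change), led by the inhibitor gene Nfkbia at 168 against 95.4 CPM in library 1 and equal at 166 CPM in library 2. The remaining lists of stress, death and signalling had intervals that included no change in both libraries. Immediate early genes were at 1.29-fold and 0.953-fold, p53 targets at 0.956-fold and 1.06-fold, genes of survival and death at 0.954-fold and 1.08-fold, homing genes at 1.03-fold and 0.995-fold, autophagy and lysosome genes at 1.03-fold and 1.12-fold, and MHC class I genes at 0.937-fold and 1.04-fold.

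Levels of several genes shifted with the number of cycle UMIs in a cell, also among the cells outside the rule. Cells of 2000 to 2999 UMIs were sorted by their UMIs over the 27 genes of the rule: 70 and 91 members, then 161 and 163 other cells with 1 to 3, 312 and 308 with 4 to 7, 334 and 251 with 8 to 15, and 105 and 82 with 16 or more. The classes also differ in depth, with medians of 2201, 2294, 2460.5, 2629 and 2748 UMIs in library 1 and 2291, 2321, 2565.5, 2677 and 2679.5 in library 2. Tubb5 went from 557 CPM in members through 759, 984 and 1513 to 2342 CPM in library 1, and from 612 through 816, 1003 and 1512 to 2585 CPM in library 2. Wfdc17 went the other way, from 689 CPM in members through 592, 465 and 272 to 169.8 CPM, and from 743 through 579, 434 and 311 to 183 CPM.

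The ribosomal share was lower in each class than in the one before it. The median share of ribosomal protein UMIs went from 41.8% in members through 40.9%, 38.7% and 36.5% to 34.4% in library 1, and from 39.4% through 37.7%, 36.7% and 34.0% to 32.5% in library 2. Interferon response genes were at 4385 CPM in members, then 4120, 3819, 3386 and 2901 CPM in library 1, and at 4625, 4698, 3845, 3729 and 3257 CPM in library 2. Members were thus under the next class in library 2, out of the order of the other classes. For stem cell genes members were under the next class in both libraries. Stem cell genes were at 5355, 5798, 5180, 4394 and 3298 CPM in library 1 and 6437, 6452, 5332, 5095 and 4035 CPM in library 2. Dntt showed no steady order, with 946, 778, 757, 617 and 1065 CPM in library 1. The CPM of one gene depends on that of all others, and the cycle genes themselves take more of the total in the upper classes.

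**Figure D5:**
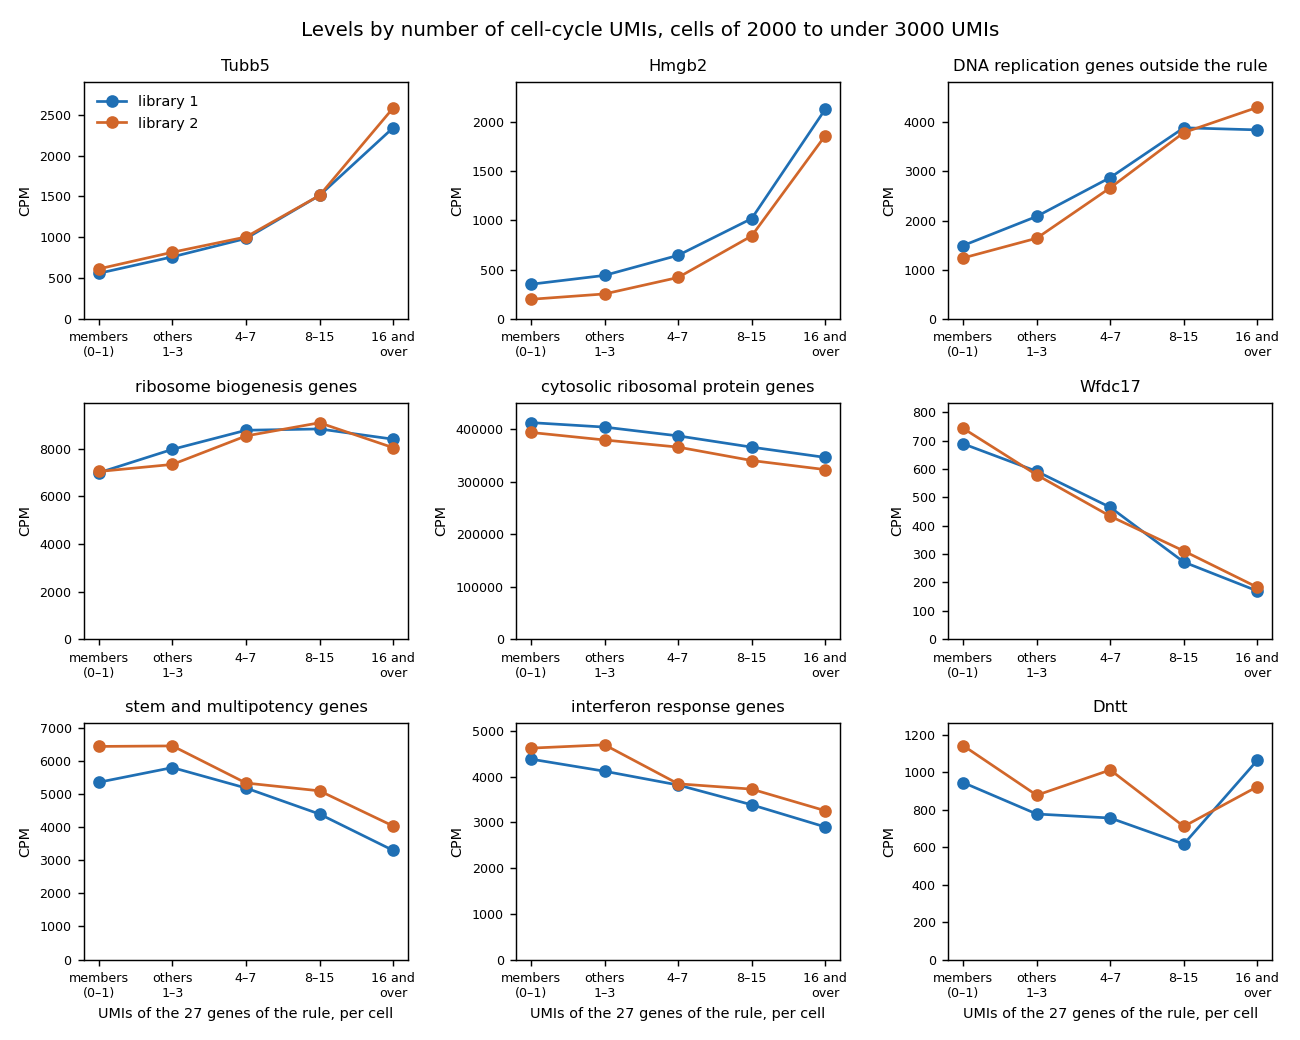
Level in CPM (y axes, from 0) in cells of 2000 to 2999 UMIs, by the number of UMIs of the 27 genes of the rule per cell (x axis), for library 1 (blue) and library 2 (orange). Tubb5, Hmgb2 and the replication list are higher to the right, Wfdc17 goes from 689 and 743 CPM to 169.8 and 183 CPM, and Dntt has no steady order.

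Cells just outside the limit were close to those just inside it in the ribosomal share. Some cycle genes were higher with 2 S phase UMIs than with 1, but levels also differed between 0 and 1, inside the limit. Inside were 32 and 41 cells with no UMI of the rule at all and 44 and 53 with 1 S phase UMI, and just outside were 71 and 59 cells with 2 S phase UMIs and no mitosis UMI. A further 20 cells of library 1 (9 and 11) and 32 of library 2 (13 and 19) had 1 mitosis UMI and at most 1 S phase UMI. Among cells of 2000 to 2999 UMIs, Tubb5 was at 433 and 676 CPM with 0 S phase UMIs. Tubb5 was at 638 and 561 CPM with 1 S phase UMI and at 838 and 778 CPM with 2. It was at 678 and 779 CPM with 1 mitosis UMI. Dctpp1 was at 352, 370, 589 and 608 CPM in cells of library 1 with 0, 1, 2 and 3 S phase UMIs and no mitosis UMI. In library 2 it was at 311, 377, 514 and 538 CPM, so it stepped up from 1 to 2 in both. In cells with 1 mitosis UMI it was at 398 and 234 CPM, near or under the level with 1 S phase UMI. H2afz went from 597 CPM with 1 to 582 CPM with 2 S phase UMIs in library 1, and from 394 to 476 CPM in library 2. Stmn1 was at 657, 946 and 1463 CPM with 0, 1 and 2 S phase UMIs in library 1, and at 773, 712 and 861 CPM in library 2. The replication list outside the rule was at 1298, 1615, 2024 and 2190 CPM with 0, 1, 2 and 3 in library 1. In library 2 that list was at 1106, 1340, 1382 and 1996 CPM, with its largest step from 2 to 3. The ribosomal share had medians of 41.5% and 38.8% with 1 S phase UMI, 41.1% and 37.9% with 2, and 41.4% and 38.6% with 1 mitosis UMI. A single UMI thus decides membership for many cells.

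Promoters of the lower genes were searched for the letters of known cycle elements, since the retinoblastoma and DREAM complexes act through them. RefSeq windows (GRCm38.p6) from 250 bases before to 50 after each start were searched on both strands for TTTGAA, the core of the CHR element, and for TTCCCGC or TTGGCGC, forms of the E2F element. TTTGAA was found in 18.1% of all 27025 windows, and the E2F letters in 6.93%. Of the 46 lower genes outside the rule 37 had a window by symbol. TTTGAA was in 8 of these (21.6%), against 12.4% of the 852 measured genes with a window, and the E2F letters were in 7 (18.9%), against 14.3%. A match is a description of letters, not a binding site. In the full lists, whose genes were chosen for their function, TTTGAA was in 26 of 36 windows of G2 and mitosis genes (72.2%) and the E2F letters in 14 of 29 windows of replication genes (48.3%), the reverse combinations being 20.7% for TTTGAA in replication genes and 5.56% for the E2F letters in mitosis genes.

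Stretches of 120 bases, taken from the 250 bases before the start so as to hold the match, are shown for 3 lower genes of different roles, a chromatin protein, a tubulin and a nucleotide kinase, to show where the letters lie; capitals mark the letters found, and each is read 5′ to 3′ on the gene's strand. They lie at chr8:57511723-57511842 (plus strand), chr2:25224821-25224940 (minus strand) and chr1:93801935-93802054 (minus strand). The match shown begins 30 bases before the RefSeq start in Hmgb2, 198 in Tubb4b and 72 in Dtymk. Hmgb2 has a second TTTGAA, on the other strand and outside the stretch shown, 218 bases before the start. In Hmgb2 and Tubb4b the capitals are TTTGAA, and in Dtymk TTGGCGC.
Hmgb2: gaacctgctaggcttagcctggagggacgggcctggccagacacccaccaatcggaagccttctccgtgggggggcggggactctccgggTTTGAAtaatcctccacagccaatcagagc
Tubb4b: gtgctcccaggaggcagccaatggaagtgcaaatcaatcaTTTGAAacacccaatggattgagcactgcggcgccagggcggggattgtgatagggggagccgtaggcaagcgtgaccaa
Dtymk: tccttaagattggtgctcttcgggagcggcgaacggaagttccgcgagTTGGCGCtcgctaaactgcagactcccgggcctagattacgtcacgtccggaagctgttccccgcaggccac

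Members of the 2 libraries resembled each other in the cycle genes, as matched cells did, and differed in few others. The same limit on cycle UMIs chose members in both libraries, so their likeness in cycle genes is not a separate result. The G2 and mitosis list had a log2 ratio of library 2 over library 1 of 0.01 (-0.23 to 0.25) in members and 0.04 (-0.12 to 0.19) in matched cells, and the replication list of -0.21 and -0.20. Of 1098 genes measured, 53 had a ratio of library 2 over library 1 in members at least 1 away from that in matched cells on the log2 scale, of which 51 could be named under the rule for named genes. On the low side these were led by the class II genes and Cst3, which rest on the 4 cells described above, and by Phb, prohibitin of the inner mitochondrial membrane, with 33 UMIs in members of library 1 and 8 in library 2 (185 and 36.0 CPM, against 185 and 139 CPM in matched cells). On the high side Capns1, the small subunit of calpains, was at 101 and 274 CPM in members and 179.5 and 198 CPM in matched cells, and Clns1a, a chloride channel regulator, at 107 and 229 CPM and 219 and 184 CPM. Tbc1d10c, Stk16, Sri and Cetn2 made up the rest of the 6 highest, with log2 ratios in members of 0.82 to 0.99. The libraries differ in genotype and in depth, and these cannot be told apart.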

How the data were processed

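Single-cell RNA was measured in 2 samples. The authors deposited 1 pooled matrix of UMI counts (27998 genes, 7884 barcodes); Cell Ranger 1.1 and the build mm10 stand in the submitters' processing notes, and the sources used here give no other step. Libraries were told apart by barcode suffix, and columns of other samples numbered 0. Members followed the rule in the report, and 1 cell of the same library with the nearest UMI total was matched to each, without replacement. UMIs were summed and scaled to CPM. Ratios carry exact conditional Poisson intervals and shares exact Clopper-Pearson intervals, both for counting error only. Cells are not replicates, so no test was run. Thinning drew 2000 UMIs per cell without replacement (seed 1). No doublet caller was run and no cell was removed as a doublet. Positions are from GENCODE M21 on GRCm38, found for 27722 genes.

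Named genes were the 12 highest and 12 lowest called genes by the mean log2 ratio of both libraries (rule genes, sex-linked genes and predicted or unnamed genes left out), for each list the 2 to 4 genes best counted or with the largest ratio, and, between libraries, the 6 highest and lowest. Stmn1, Dtymk, Dctpp1 and, within some lists, Bcl11a, Cd53, Btg2, Foxp1 and Irf7 were named after their values were seen. Members and gene lists were chosen with earlier results of these data known. Of the list symbols, Gas5, Ighm, Gm4258, Cebpd, Cd97 and Trbc2 were not matched. Scripts used Python 3.11.15, numpy 2.4.6, scipy 1.17.1, pandas 2.3.3 and matplotlib 3.10.9, and were tested on simulated data. Alternatives covered the comparison cells, depth, rule, matching, scaling, averaging, low counts, class II cells and fold.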

Additional observations from a re-analysis of the deposited data

Results flagged for a closer look

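The MHC class II list stood out because members moved in opposite ways in the 2 libraries. Its median log2 ratio of members to matched cells was 4.11 in library 1 and -0.79 in library 2, over 5 measured genes. The difference between the libraries was not tested, since each genotype had 1 library. In library 1 it rested on 4 cells with 165 to 250 class II UMIs each.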

How the results depend on the processing

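The number of lower genes (50) and higher genes (7) depended on how much was counted and compared. It was 87 and 24 against all other cells without matching, 2 and 2 in cells of at least 3000 UMIs, 122 and 12 with a looser rule (at most 1 mitosis and 3 S phase UMIs), 31 and 11 with totals without ribosomal, mitochondrial and rule genes, 139 and 24 from 50 UMIs per gene, 8 and 1 from 300, and 12 and 0 at 2-fold. Requiring 0 UMIs of all rule genes left 16 lower genes. With 3 matched cells per member, an alternative chosen after seeing the data, there were 33 and 3, of which 28 and 1 were among those of the report. The rule on thinned counts gave 53 and 5, of which 29 and 2 were the same genes. Leaving out cells with 20 or more class II UMIs, also chosen after seeing the data, gave 46 and 5, of which 46 and 4 were the same.

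The share of members was 4.87% and 3.51% in libraries 1 and 2 on thinned counts, 0.410% and 0.0961% from 3000 UMIs, 1.31% and 1.02% with 0 UMIs of all rule genes and 11.3% and 7.45% with the looser rule. The median of the replication list (-0.68, mean of both libraries) passed 1.5-fold in both libraries without matching (-0.88), after thinning (-0.88), with the looser rule (-0.84), from 50 UMIs per gene (-1.14), with 3 matched cells (-0.85) and without class II-rich cells (-0.81). That of the lymphoid list (0.49) passed it without matching (0.77). Among the named genes, the direction turned for Lgals1 without matching (-0.30) and with the looser rule (-0.0941), and for S100a13 from 3000 UMIs (-0.000113). The medians of some lists, as means of both libraries, also crossed 0 between settings. That of ribosome biogenesis genes ranged from -0.389 to 0.293, and that of interferon response genes from -0.0323 to 0.515. For MHC class I genes the range was -0.179 to 0.182, and for MHC class II genes -0.0511 to 2.26. Judged on the ratios alone, Gmnn, Hmgb2, Rnaseh2c, Tubb4b, Tuba1b, Smc4 and Tubb5 stayed past the call under every alternative that gave a value, and Siva1 and Lyar under all but 2-fold. Counting 2-fold, Tipin fell short or turned under 7, Dpy30 under 7, H2-Q7 under 3, Wfdc17 under 2 (3000 UMIs and 2-fold), Tyrobp under 7, Pim1 under 5, Lsp1 under 8, Lgals1 under 8 and S100a13 under 9. The causes of these shifts were not tested. No paired analysis was possible because each genotype had 1 library.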
